A study of Mus musculus with 9 samples.

Results

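The 10 genes described here are the immediate early genes *Fos*, *Fosb*, *Junb*, *Egr1*, *Egr2*, *Egr4*, *Arc*, *Npas4*, *Nr4a1* and *Dusp1*. They were chosen by symbol as genes that neuronal activity induces. All 10 were found, by Ensembl gene identifier, among the 15464 genes measured by RNA-seq in the mouse striatum, and all 10 were among the 14239 genes tested.

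The striatum came from 9 male mice on a C57BL/6J background, aged 10 to 12 weeks. They were 3 wild-type (WT) mice, 3 heterozygous (HET) and 3 homozygous knock-out (KO) littermates for the *Shank3B* allele of *Shank3*, which encodes a scaffold protein of excitatory synapses, and each mouse gave 1 library. The *Shank3B* allele targets a block of internal exons in the germline, so that it is carried by every cell of the mouse and transcripts from the rest of the gene can still be made. All mice were killed under deep isoflurane anesthesia, and no treatment that evokes neuronal activity is described. Because whole tissue was used, fewer cells that express a gene and less RNA of it per cell cannot be told apart.

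Immediate early genes are transcribed within minutes of a strong synaptic or growth factor input, without new protein synthesis, and their mRNAs are short-lived. Calcium and MAP kinase signals reach their promoters through factors that are already present, mainly CREB at the cAMP response element (CRE) and SRF with its partners at the CArG box, an A and T rich run between paired C and paired G. Most of the products are transcription factors that act on later genes, and others act directly at synapses or on the signal itself. In the striatum they are widely used as marks of recently active medium spiny neurons, the principal cells of this region.

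Values are the deposited normalized counts, and differences are log2 fold changes (log2FC) of log2(normalized count + 1), fitted with limma over all 9 libraries, with p-values adjusted over the 14239 genes by the Benjamini-Hochberg method. The libraries summed to between 30830020 and 33790296 normalized counts, sums that follow the normalization and do not give the number of reads. *Shank3* itself, summed over the whole gene and so no check of the deleted exons, was at 7355 ± 1390 (SD, n = 3) in WT, 7574 ± 476 in HET and 10538 ± 283 in KO, a log2FC of 0.54 for KO (adjusted p = 0.912 in limma). Markers of medium spiny neurons were present in every library, with *Ppp1r1b* between 12449 and 31982 and *Drd1* between 2370 and 5086 normalized counts, and *Ttr*, the defining transcript of choroid plexus, lay between 0 and 26.6. HET replicate 3 and KO replicate 3 stood apart from the other libraries on the first principal component, which held 33.6% of the variance, so the main results are given with and without them.

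Promoters are shown first, because they hold the letters that the upstream factors read. The genes were chosen as induced by activity, so the presence of such letters is not independent of their choice. RefSeq promoters (GRCm38.p6) were found for 8 of the 10 genes, all but *Arc* and *Egr1*, with 12 start sites of which 5 belong to *Egr2*, and the 250 bases before each start site were searched on both strands. The CRE core TGACG was found before at least 1 start site of 8 of 8 genes, against 19.8% of all 27025 genes. It was absent before 2 of the *Egr2* start sites, and the windows of the other 3 overlap and hold the same pair of cores. The promoters of these genes were rich in G and C, with a median of 67.2% against 52.4%. Counted by promoter, 10 of their 12 held the core. Among the 14726 promoters with a GC content no lower than the lowest of them, 25.4% held it. The median GC content of that set was 62.4%, still lower than that of these genes. The full palindrome TGACGTCA, which contains the core, was found in *Dusp1* and in 1.77% of all genes. A CArG box was found in *Egr2* and in 1.62% of all genes. Sequence farther upstream than 250 bases was not searched, so a gene without a match here may hold such a site elsewhere. The EGR site (GCGTGGGCG or GCGGGGGCG) was found in *Fosb* and *Nr4a1* and in 3.47% of all genes, the TATA box TATAAA in *Fos* and in 14.3%, and the AP-1 site TGANTCA in 0 of 8 genes and in 7.82% of all genes. A match is a description of the letters and not a measured site. *Fos*, *Egr2*, *Egr4*, *Nr4a1* and *Dusp1* are printed below because they hold the core more than once outside annotated exons, with the *Egr2* window at 1 of its annotated start sites and the *Dusp1* stretch ended where an annotated exon begins. Each reads 5′ to 3′ on the strand of its gene, and capitals mark the CRE or its core (CGTCA when on the other strand), the CArG box and the TATA box.
Fos, chr12:85473640-85473889, plus strand: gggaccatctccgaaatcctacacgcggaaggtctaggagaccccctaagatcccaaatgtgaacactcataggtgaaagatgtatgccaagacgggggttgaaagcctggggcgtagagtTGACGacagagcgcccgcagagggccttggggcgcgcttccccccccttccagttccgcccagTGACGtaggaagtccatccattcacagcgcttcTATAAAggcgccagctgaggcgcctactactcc
Egr2, chr10:67537619-67537868, plus strand: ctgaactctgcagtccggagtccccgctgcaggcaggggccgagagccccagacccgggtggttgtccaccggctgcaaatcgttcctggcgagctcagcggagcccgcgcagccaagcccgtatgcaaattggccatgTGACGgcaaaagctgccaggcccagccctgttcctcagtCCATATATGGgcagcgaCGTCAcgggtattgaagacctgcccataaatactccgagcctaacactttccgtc
Egr4, chr6:85513590-85513839, minus strand: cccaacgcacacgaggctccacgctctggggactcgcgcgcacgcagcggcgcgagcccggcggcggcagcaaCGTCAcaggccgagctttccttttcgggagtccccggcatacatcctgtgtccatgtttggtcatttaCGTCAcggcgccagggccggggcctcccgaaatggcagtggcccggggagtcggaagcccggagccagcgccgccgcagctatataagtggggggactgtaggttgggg
Nr4a1, chr15:101266596-101266845, plus strand: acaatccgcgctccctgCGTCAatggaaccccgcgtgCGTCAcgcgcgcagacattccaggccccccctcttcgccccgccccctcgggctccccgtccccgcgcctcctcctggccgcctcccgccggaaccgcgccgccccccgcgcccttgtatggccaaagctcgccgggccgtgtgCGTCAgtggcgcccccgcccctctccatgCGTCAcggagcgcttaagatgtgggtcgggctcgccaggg
Dusp1, chr17:26508520-26508722, minus strand: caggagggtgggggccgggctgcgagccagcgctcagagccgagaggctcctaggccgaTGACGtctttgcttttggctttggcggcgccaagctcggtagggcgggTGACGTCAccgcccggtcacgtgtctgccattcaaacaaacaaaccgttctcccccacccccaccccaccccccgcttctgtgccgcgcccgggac

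The core occurred 2 times in the *Fos* window, at −129 and −66 from the start site, with the TATA box at −33. *Egr2* had the CArG box at −72 between cores at −111 and −55. *Nr4a1* had 4 cores in its window, the most of these genes, and *Dusp1* had the full CRE at −143 with another core at −191.

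The 10 genes were expressed in all 9 libraries at levels that spanned a wide range. Per kilobase of exon, and as a mean over the 9 libraries, *Arc* stood at 3333 normalized counts, *Egr1* at 3132, *Nr4a1* at 1471, *Junb* at 963 and *Egr4* at 685. The others followed with *Fos* at 642, *Dusp1* at 420, *Npas4* at 317, *Egr2* at 217 and *Fosb* at 105 normalized counts per kilobase. *Arc* and *Egr1* did not differ beyond their spread, *Arc* being the higher in 5 of 9 libraries. *Egr1* was above *Nr4a1* in 9 of 9 libraries with no overlap of their ranges. The ranges of every later pair of neighbours in this order overlapped, although the gene with the higher mean was the higher one in 7 to 9 of the 9 libraries.

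The first group of members by role encodes subunits of AP-1, the dimer of Fos and Jun family proteins that binds promoters and enhancers of later genes. *Fos* (chr12:85473890-85477273, plus strand) was at 1512, 1135 and 1526 normalized counts in the WT mice, 761, 1398 and 1615 in the HET mice, and 1068, 2752 and 1828 in the KO mice. KO replicate 2 was the highest and HET replicate 1 the lowest library, the 3 groups overlapped, and the means were 1391 ± 222 (SD, n = 3), 1258 ± 444 and 1882 ± 843. The log2FC of *Fos* was −0.20 for HET against WT and 0.35 for KO against WT, each with a standard error of 0.34, and 0.55 for KO against HET (95% interval −0.22 to 1.32, unadjusted p = 0.143 in limma). *Fosb* (chr7:19302696-19310051, minus strand), whose truncated product persists in the striatum after repeated stimulation, was at 885, 543 and 610 in WT, 522, 583 and 438 in HET, and 758, 1093 and 480 in KO. Its HET values lay within a narrow span while those of KO held both the highest value of all and one below every WT value. The log2FC of *Fosb* was −0.38 for HET and 0.15 for KO against WT, and 0.53 for KO against HET (95% interval −0.09 to 1.14, unadjusted p = 0.087). *Junb* (chr8:84974484-84978718, minus strand), the Jun partner, was at 2654, 1803 and 2300 in WT, 1880, 2202 and 1898 in HET, and 2039, 3333 and 1834 in KO. As for *Fos* and *Fosb*, KO replicate 2 was the highest library, while KO replicate 3 was near the bottom, and its log2FC values were −0.16, 0.06 and 0.22 in the same order.

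The Egr members are zinc finger transcription factors that bind GC-rich sites. *Egr1*, the most abundant of them, was at 13806, 13508 and 15743 normalized counts in WT, 9943, 11508 and 19111 in HET, and 11177, 14765 and 16832 in KO. Replicate 1 was the lowest and replicate 3 the highest library in both HET and KO, the WT values lay inside the range of the HET values, and the log2FC was −0.14 for HET, −0.03 for KO and 0.12 for KO against HET. *Egr2* (chr10:67535475-67542188, plus strand) was at 831, 584 and 717 in WT, 486, 580 and 1080 in HET, and 553, 949 and 870 in KO, with log2FC values of −0.07, 0.13 and 0.20. HET mice thus held both the lowest and the highest *Egr2* value of all 9. *Egr4* (chr6:85511121-85513589, minus strand) was the steadiest member, with 1488, 1371 and 1494 in WT, 1138, 1331 and 1638 in HET, and 1485, 1839 and 1464 in KO. Its log2FC was −0.10 for HET and 0.13 for KO against WT, with a standard error of 0.14, and 0.23 for KO against HET (95% interval −0.08 to 0.54, unadjusted p = 0.134 in limma).

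*Npas4* and *Nr4a1* are transcription factors of other families. *Npas4* (chr19:4984355-4990316, minus strand), a bHLH-PAS factor induced selectively by calcium entry in neurons, was at 1304, 1479 and 1235 normalized counts in WT, 789, 1236 and 1222 in HET, and 948, 2274 and 1315 in KO. HET replicate 1 and KO replicate 1 were the lowest libraries and KO replicate 2 stood far above all others, and the log2FC was −0.33 for HET, 0.08 for KO and 0.42 for KO against HET (95% interval −0.21 to 1.04). *Nr4a1* (chr15:101254269-101274795, plus strand), an orphan nuclear receptor, was at 5393, 3690 and 5129 in WT, 4230, 4021 and 6346 in HET, and 5051, 6271 and 6317 in KO. Of the KO values, 2 lay above every WT value, but HET replicate 3 was the highest of all, and the log2FC was 0.03 for HET, 0.32 for KO (95% interval −0.11 to 0.76) and 0.30 for KO against HET.

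The last members by role act outside transcription. *Arc* (chr15:74669083-74672570, minus strand), whose product removes AMPA receptors from the synaptic membrane, was at 10696, 7634 and 9766 normalized counts in WT, 9110, 7559 and 12361 in HET, and 10062, 12091 and 12417 in KO. The lowest KO value lay between the WT values, the highest HET value was nearly as high as the highest KO value, and the log2FC was 0.03 for HET, 0.31 for KO (95% interval −0.11 to 0.72) and 0.28 for KO against HET. *Dusp1* (chr17:26505590-26562128, minus strand), a phosphatase that switches off MAP kinases, was at 1296, 1078 and 1300 in WT, 1096, 1328 and 1727 in HET, and 1094, 1908 and 1682 in KO. Its log2FC was 0.16 for HET, 0.32 for KO and 0.16 for KO against HET, and in each mutant group 1 value lay within the WT range and 2 lay above it.

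**Figure D1:**
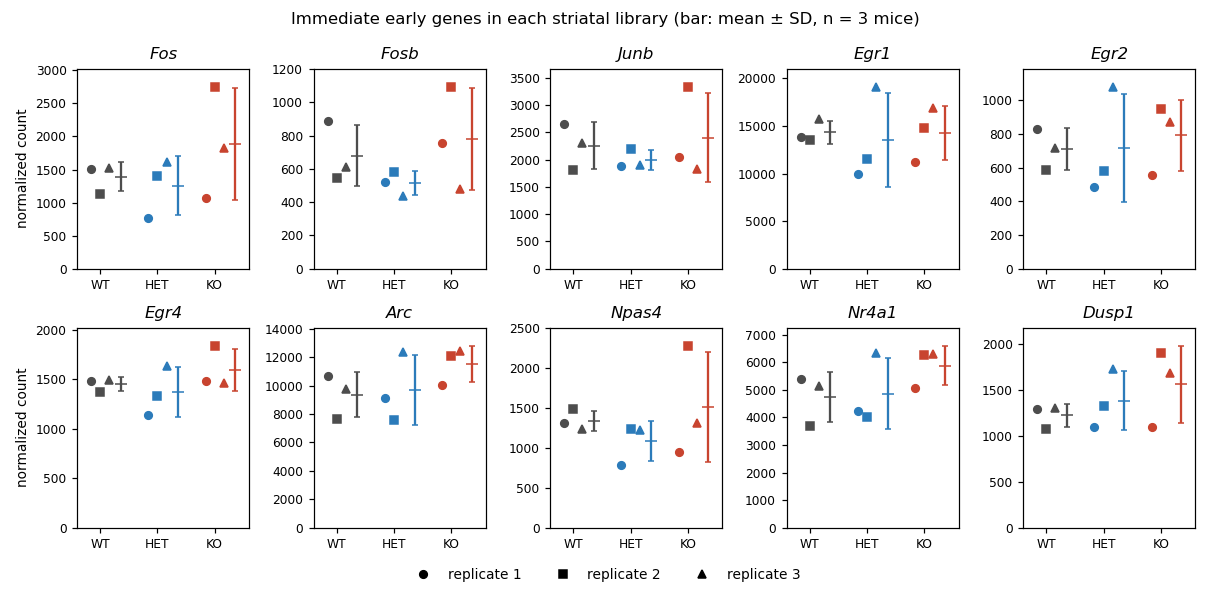
Normalized counts of the 10 genes (y axis, from 0) in each library by genotype (x axis), with 1 symbol per mouse, its shape giving the replicate number, and the mean ± SD of 3 mice beside them. The genotypes overlap for every gene, KO replicate 2 (square) is the highest library for 6 genes and HET replicate 1 (circle) the lowest for 5.

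With regard to the question whether *Shank3* dosage alters these genes, 0 of the 10 had an adjusted p under 0.05 in limma in HET against WT, KO against WT or KO against HET, and 0 of the 10 had an unadjusted p under 0.05. Over all 14239 genes, the adjusted threshold was passed by 0.0% in each comparison and the unadjusted one by 1.11%, 0.822% and 1.31%. The study's own DESeq2 test called some genes in HET and in KO against WT, with *Shank3* among those in KO. Its calls and those of limma are thus not alike. The 10 genes had adjusted p-values of 0.999 in both comparisons with WT and of 1.00 in KO against HET. The 2 genotypes compared overlapped in all 30 cases, and without overlap were 4.45%, 4.54% and 4.45% of all genes. Exact two-sided permutation tests over the 3 mice of each genotype cannot go below p = 0.1, and the smallest p among the 10 genes was 0.2.

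The direction of the fitted differences was uneven between the comparisons. The log2FC was above 0 for 3 of the 10 genes in HET against WT (*Arc*, *Nr4a1* and *Dusp1*), for 9 in KO against WT (all but *Egr1*) and for 10 in KO against HET, where 49.3%, 51.6% and 49.6% of all genes were above 0. The medians were −0.12, 0.14 and 0.25, against −0.0027, 0.0047 and −0.00099 over all genes. The 10 genes vary together across mice, as described below, so that they do not count as 10 separate observations of a direction. The comparisons share libraries as well. For KO against WT the upper end of the 95% interval lay between a 1.36-fold higher level (*Egr4*) and a 2.16-fold higher level (*Fos*), and the lower end between 0.686-fold (*Npas4*) and 0.928-fold (*Arc*). Differences inside these intervals were not excluded with 3 mice per genotype.

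**Figure D2:**
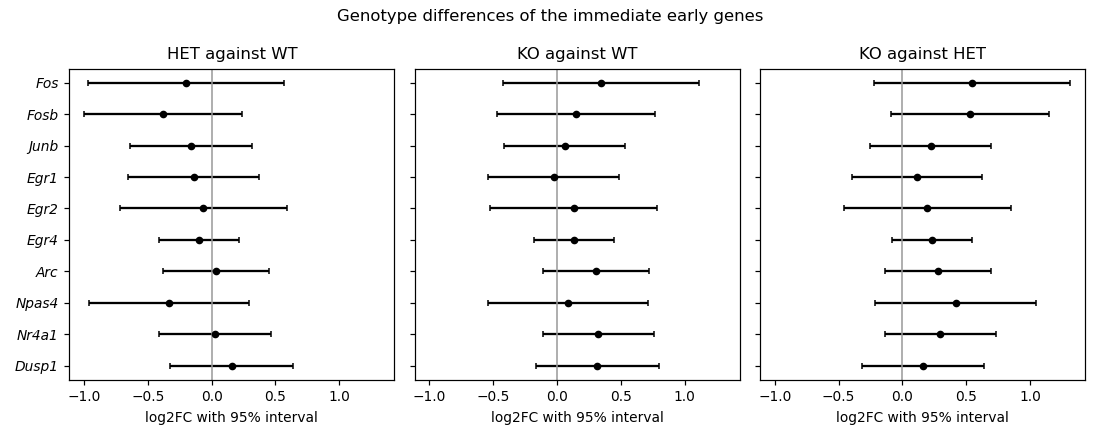
Log2FC (x axis) of the 10 genes (y axis) in the 3 comparisons, with limma's 95% interval as the bar and a vertical line at 0. All intervals include 0, and the points for KO against HET all lie to the right of it, from 0.12 for *Egr1* to 0.55 for *Fos*.

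Without HET replicate 3 and KO replicate 3, the log2FC was below 0 for 10 of the 10 genes in HET against WT, from −0.02 for *Dusp1* to −0.44 for *Npas4*. *Egr1* then had a log2FC of −0.42 and an unadjusted p of 0.013 in limma. Over all genes tested, 271 passed the unadjusted threshold in that comparison and fit. For KO against HET, the fit of all 9 libraries had 0 of the 10 genes and 186 of all genes tested past the unadjusted threshold. When HET replicate 3 and KO replicate 3 were left out, 4 of the 10 genes passed it in limma. The count over all genes is not given for that fit. These 4 were *Egr4* (log2FC 0.42, unadjusted p = 0.009), *Fosb* (0.72, unadjusted p = 0.017), *Nr4a1* (0.45, unadjusted p = 0.037) and *Arc* (0.41, unadjusted p = 0.042). No adjusted p of the 10 genes was under 0.05 in that fit, in which the smallest was 1.00. Leaving out HET replicate 3 alone gave an unadjusted p under 0.05 to 5 genes in KO against HET (*Arc*, *Nr4a1*, *Egr4*, *Egr2* and *Egr1*), with a smallest adjusted p of 0.986. In that comparison and fit, 286 of all genes tested had an unadjusted p under 0.05. Leaving out single libraries gave 70 to 289 such genes in KO against WT. In KO against HET the range was 141 to 298. Without KO replicate 1 the unadjusted threshold was passed by *Dusp1* (log2FC 0.55) and *Fos* (0.70) in KO against WT and by *Fos* and *Npas4* in KO against HET, and without KO replicate 3 by *Fosb* in KO against HET. In the other direction, without KO replicate 2 the genes above 0 in KO against WT numbered 5 and the log2FC of *Fos* in that comparison was 0.02 in place of 0.35. Without HET replicate 1, 7 genes were above 0 in HET against WT, and *Fos* had a log2FC of 0.12 in place of −0.20.

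Over all genes, deviations from the genotype means correlated at 0.52, 0.28 and 0.51 between same-numbered HET and KO libraries (numbers 1, 2 and 3). HET and KO libraries with different numbers were not compared, so whether the number itself pairs them was not tested. HET replicate 3 and KO replicate 3 were also the libraries apart on the first principal component. KO was above HET for 9, 10 and 4 of the 10 genes in the 3 same-numbered pairs, and for 52.6%, 48.1% and 49.7% of all genes. The median log2 difference of the 10 genes was 0.22, 0.66 and −0.02. *Fos*, *Fosb*, *Arc* and *Npas4* were higher in KO in all 3 pairs, as were 12.9% of all genes. On the log2 scale, *Fos* was 0.49, 0.98 and 0.18 higher, *Fosb* 0.54, 0.91 and 0.13, and *Npas4* 0.26, 0.88 and 0.11. *Arc* was 0.14, 0.68 and 0.0065 higher, so that it hardly differed in pair 3. With the replicate number as a block, 0 of the 10 genes had an unadjusted p under 0.05 in KO against HET, and *Fosb* (unadjusted p = 0.050) and *Npas4* (unadjusted p = 0.056) came nearest.

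Variation between mice of the same genotype was large for most of these genes. The residual SD on the log2 scale had a median of 0.33 over the 10 genes, against 0.19 over all genes. *Fos*, at 0.54, stood at percentile 93.7 of all genes tested, *Egr2* (0.45) at 89.9, *Npas4* (0.43) at 88.9 and *Fosb* (0.42) at 88.1, while *Egr4* (0.19) stood at 49.2. Over all 9 mice, the highest value exceeded the lowest 3.62-fold for *Fos*, 2.88-fold for *Npas4* and 2.22-fold for *Egr2*, but 1.62-fold for *Egr4*.

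The genes tended to be high, or low, in the same mice. In KO replicate 2, 10 of the 10 genes were above their own median over the 9 libraries, with a mean z-score of 1.45, and in HET replicate 1, 0 of 10 were, with a mean z-score of −1.19. In WT replicate 2 and KO replicate 1, 1 of the 10 genes was above its median (mean z-scores −0.68 and −0.43). The z-scores of WT replicate 1 and WT replicate 3 were 0.35 and 0.08, and that of HET replicate 2 was −0.53. Each genotype thus held a library on either side of 0. HET replicate 3 and KO replicate 3, with 7 of 10 genes above the median in each, were split by gene. *Egr1*, *Egr2*, *Arc*, *Nr4a1* and *Dusp1* were high there, from 0.28 to 0.60 above their means on the log2 scale, while *Fosb* was 0.52 and 0.39 below its mean in the respective library and *Junb* 0.19 and 0.24 below.

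**Figure D3:**
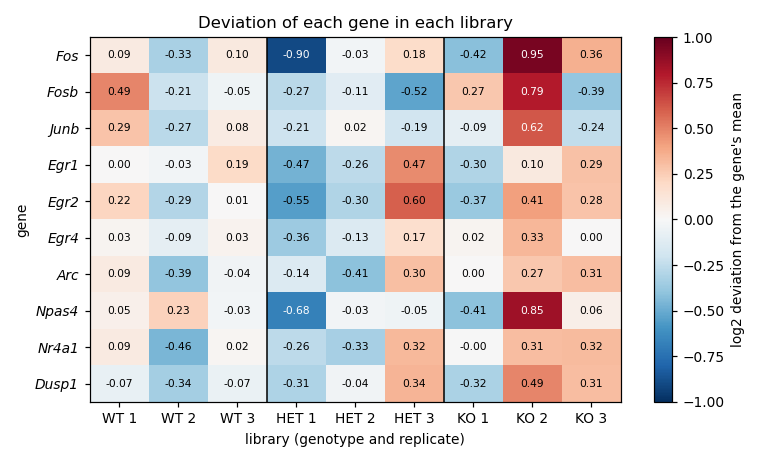
Log2 deviation of each gene (rows) from its own mean over the 9 libraries (columns, with lines between the genotypes), red above and blue below the mean. The column of KO replicate 2 is above the mean throughout, from 0.10 for *Egr1* to 0.95 for *Fos*, that of HET replicate 1 is below it throughout, and *Fosb* and *Junb* go against *Egr1* and *Egr2* in HET replicate 3 and KO replicate 3.

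The agreement of the genes across single libraries was measured for all 45 pairs over the 9 mice. Pearson's r had a median of 0.66, from −0.20 to 0.98, and was above 0 in 44 pairs, and Spearman's rho had a median of 0.60. Over pairs of all genes tested, the median r was −0.002, and 8.27% of pairs reached the median of these genes. By exact permutation of the pairings with adjustment over the 45 pairs, 12 pairs had an adjusted p under 0.05 for r and 5 for rho, and 22 and 17 pairs had an unadjusted p under 0.05. The correlations of deviations from the genotype means had a median of 0.65 with 42 pairs above 0, so that the agreement was present within genotypes.

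The closest pair was *Arc* and *Nr4a1*, with r = 0.98 (exact permutation p = 5.5e-05, adjusted p = 0.00248) and rho = 0.95 (p = 0.00035, adjusted p = 0.0159). *Egr1* and *Egr2* had r = 0.90 and rho = 0.92 (exact permutation, adjusted p = 0.0198 and 0.0197), and *Fos* and *Dusp1* had r = 0.89 and rho = 0.87 (adjusted p = 0.0125 and 0.0406 by the same test). *Fosb* and *Junb* had r = 0.89 and rho = 0.80 (exact permutation, adjusted p = 0.0207 and 0.0775). *Egr2* was the best connected gene, with a median r of 0.82 with the 9 others, and *Fosb* the least, with a median of 0.19. *Fosb* and *Egr1* gave the pair below 0 (r = −0.20, rho = −0.27).

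For each pair, the 2 libraries farthest from the median of its first gene were left out. The median r was then 0.44, and 29 of the 45 pairs were above 0. The 12 pairs with an adjusted p under 0.05 all remained above 0, from 0.34 for *Fos* and *Npas4* to 0.98 for *Arc* and *Nr4a1*. These pairs had been picked for a high r in the same libraries, so their sign here is no separate support. Without HET replicate 3 and KO replicate 3, the median r over 7 libraries was 0.79 and 45 of 45 pairs were above 0. *Fosb* and *Egr2* then had r = 0.83 in place of 0.11, and *Fosb* and *Nr4a1* had r = 0.89 in place of 0.19. The exact permutation test then gave an adjusted p under 0.05 for 13 pairs by r and for 0 by rho. Over the 9 libraries the count by r depended on single libraries. Leaving out HET replicate 1 or KO replicate 2 left 2 pairs, WT replicate 1 left 4 and HET replicate 3 left 6. It was highest, at 14, without WT replicate 2. The count by rho ran from 0 to 5 when single libraries were left out. Same-numbered HET and KO libraries deviated together, as given above, so they may not be fully independent. The p-values do not take this into account.

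**Figure D4:**
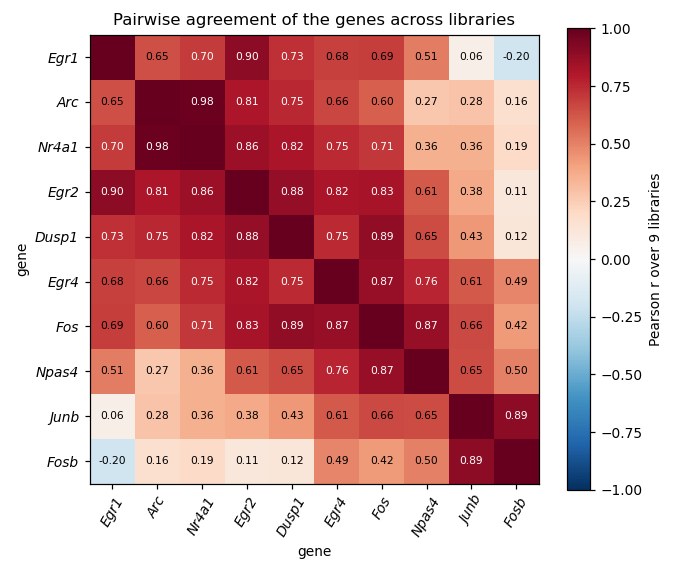
Pearson's r over 9 libraries for each pair of the 10 genes, with genes on both axes and red for positive values. *Egr1*, *Arc*, *Nr4a1*, *Egr2*, *Dusp1*, *Egr4* and *Fos* form a block of values from 0.60 to 0.98, while *Junb* and *Fosb* stand at 0.89 with each other and at 0.06 and −0.20 with *Egr1*.

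The genes outside the 10 whose values over the 9 libraries were most like the mean z-score of the 10 were *Crb1* (r = 0.94), *Timp2* (0.92), *Gpx3* (0.91), *Igsf10* (0.91), *Ly6g6e* (0.90), *Sik1* (0.90), *Ccn1* (0.90), *Nfia* (0.90), *Sla* (0.90) and *Pcdh11x* (0.90). *Sik1*, a kinase that CREB induces, and *Ccn1*, an immediate early gene for a secreted matrix protein, belong to the lists of activity-induced genes described below. *Ccn1* was at 434, 280 and 442 normalized counts in WT, 245, 405 and 392 in HET, and 258, 919 and 535 in KO, with KO replicate 2 the highest and HET replicate 1 the lowest library as for *Fos*. The least alike were *Hsbp1l1* (r = −0.93), *Dph5* (−0.91), *Rab11fip1* (−0.91), *Morn2* (−0.90) and *Tmed1* (−0.90). Of all genes tested, the 10 included, 63 (0.442%) reached an r of 0.8, and 52.1% had an r above 0. Of the 10 themselves, 5 reached 0.8 and 10 were above 0. These correlations are over 9 libraries out of 14239 genes and are given as a description.

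Paralogs of the 10 genes were described in the same way. Of 14 paralogs in the same families, 13 were tested, 0 had an r of 0.8 or more with the mean z-score of the 10, against 0.442% of all genes, and 9 had an r above 0, against 52.1%. The medians of the paralogs' log2FC were 0.00 for HET, 0.10 for KO and 0.13 for KO against HET, and 0 of 13 had an adjusted p under 0.05. At the unadjusted threshold, 1 of the 13 paralogs passed in KO against HET, where 1.31% of all genes did. It was *Dusp4*, a nuclear phosphatase of MAP kinases. *Egr3* was at 2316, 2745 and 2270 normalized counts in WT, 2021, 2317 and 2165 in HET, and 2038, 2214 and 2027 in KO. Its log2FC was −0.17 for HET and −0.22 for KO against WT (unadjusted p = 0.121 and 0.053 in limma), with both mutant groups below WT in the mean. *Nr4a2* and *Nr4a3*, the other receptors of the Nr4a family, had log2FC values of −0.27 and −0.06 for HET and of 0.07 and 0.44 for KO. *Fosl2* and *Jun* had 0.39 and 0.18 for KO, and *Jund*, which is expressed constitutively, had −0.06. The largest log2FC among the paralogs was that of *Dusp2*, a nuclear MAP kinase phosphatase named here after its values were seen, at 0.12 for HET, −0.65 for KO and −0.76 for KO against HET (unadjusted p = 0.095 for KO and 0.054 for KO against HET in limma).

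Other genes of the pathway were described by lists. Among 25 other rapid activity-induced regulators, 0 had an adjusted p under 0.05 in any comparison, and the log2FC was above 0 for 8 in HET against WT, 17 in KO against WT and 22 in KO against HET (medians −0.07, 0.10 and 0.16). Of this list *Atf3*, a stress-induced factor of the ATF/CREB family, passed the unadjusted threshold in KO against HET, with 42.2, 22.0 and 20.9 normalized counts in HET and 49.1, 71.3 and 44.2 in KO (log2FC 0.97, unadjusted p = 0.021 in limma). Among 25 activity-induced effectors the medians were 0.01, 0.06 and 0.07, and *Homer1*, a postsynaptic scaffold that binds Shank proteins, had a log2FC of −0.30 in KO against WT (unadjusted p = 0.042). Among 29 signalling proteins and transcription factors upstream, the medians were −0.05, −0.06 and 0.02, and *Cacna1c*, the L-type calcium channel whose opening induces these genes, had a log2FC of −0.29 in HET against WT (unadjusted p = 0.020). The 3 unadjusted values do not pass the adjustment over all genes (adjusted p of 0.999 for *Homer1* and *Cacna1c* and 1.00 for *Atf3*). Each was the 1 gene of its list past the unadjusted threshold in that comparison. Over all genes, 1.11% passed it in HET against WT, 0.822% in KO against WT and 1.31% in KO against HET. With the mean z-score of the 10 genes, an r of 0.8 or more was reached by *Sik1* and *Midn* among the regulators, by *Ccn1* and *Gem* among the effectors and by *Hdac5* among the upstream genes. Most genes of these lists were less alike, with a median r of 0.19, 0.15 and 0.11 in the same order. An r above 0 was found for 18 of 25, 19 of 25 and 18 of 29 genes, against 52.1% of all genes. The heat shock genes, of which 9 were tested, had median log2FC values of 0.06, 0.00 and −0.05 in the 3 comparisons.

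Markers of cell types varied with these genes to different degrees. The 14 markers of medium spiny neurons summed to between 106064 and 207133 normalized counts in WT, between 141247 and 183110 in HET and between 103347 and 154048 in KO. With the mean z-score of the 10 genes, 0 of the 14 had an r above 0, and the median r was −0.34. Their log2FC was above 0 for 1 of 14 genes in KO against WT and 1 of 14 in KO against HET, with medians of −0.25 and −0.35, where the immediate early genes had 0.14 and 0.25. The 6 markers of thalamic and septal neurons summed to 2705 in KO replicate 2, the library with the highest immediate early genes, and to between 1432 and 1963 in the 8 others. Of these 6, 5 had an r above 0 with the mean z-score of the 10 genes (median r 0.63). The 11 markers of cortical glutamatergic neurons summed to between 44535 in HET replicate 1 and 72426 in KO replicate 3, with a median r of 0.08. Median r was 0.01 for the 8 markers of oligodendrocytes, −0.14 for the 8 of astrocytes, −0.11 for the 8 of microglia, 0.16 for the 11 of vessels, −0.13 for the 3 of blood and −0.02 for the 5 of choroid plexus. The part of these markers in the differences of the 10 genes was not tested.

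**Figure D5:**
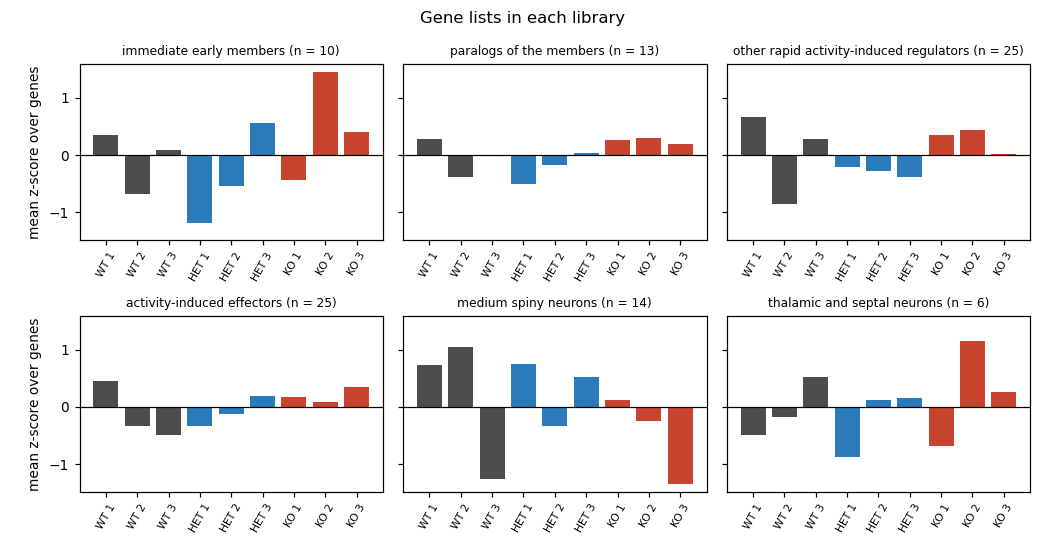
Mean z-score (y axis, 0 at each gene's mean over the 9 libraries) of 6 gene lists in each library (x axis), in bars colored by genotype, with the number of genes in each title. The 10 immediate early genes range from −1.19 in HET replicate 1 to 1.45 in KO replicate 2, a range wider than that of the other activity-induced lists, and the thalamic and septal list has its highest bar, 1.15, in KO replicate 2 as well.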

How the data were processed

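RNA-seq of the striatum of 9 male mice was used, with 3 WT, 3 HET and 3 KO mice, 1 library per mouse, made with a stranded mRNA kit. The authors made the deposited signal, which is normalized counts per gene, with Salmon 0.9.1 in quasi-mapping mode on GRCm38 with GC bias correction, tximport and DESeq2 1.19.11 size factors in R 3.6.0. Whole reads could not be recovered from these values, so depth is unknown, no counting interval is given, and the count tests planned for whole reads were not run. Precision comes from the spread between mice.

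Samples were grouped by their labels, and 0 columns were left unused. Ensembl identifiers were matched to symbols for 15457 of 15464 genes. Values were transformed as log2(normalized count + 1), and genes that reached 10 in 3 or more libraries were fitted over the 9 libraries together with limma 3.58.1 in R 4.3.3, using its trend option, with Benjamini-Hochberg adjustment at 0.05. Single genes were also compared with exact permutation tests, and pairs of genes by r and rho with exact permutation of all 362880 pairings (SciPy 1.17.1). Levels per kilobase used the union of GENCODE exons on GRCm38. Same-numbered HET and KO libraries deviated together (above 0.1 in all 3 pairs), while WT and HET (0.32, −0.01 and 0.01) and WT and KO (0.24, −0.22 and 0.02) did not in every pair. The sources do not say what the numbers stand for.

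The members and lists were chosen with earlier results of these data known. Genes named are the 10 members, 6 paralogs, list genes at an unadjusted p under 0.05, the 10 genes most and 5 least like the mean z-score of the members, *Shank3* and markers. Of 191 list genes, 187 were found in the table. Alternatives were other pseudocounts, filters, normalization, variance priors, array weights, a replicate block, fits of 2 genotypes and leaving out libraries.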

Additional observations from a re-analysis of the deposited data

Results flagged for a closer look

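*Dusp4*, a phosphatase of MAP kinases and a paralog of *Dusp1*, stood out because every HET library lay below the WT mean of 169 normalized counts and every KO library above it. It was at 195, 134 and 176 in WT, 132, 130 and 153 in HET, and 194, 205 and 175 in KO. It follows from this selection that the ranges of HET and KO did not overlap, so the lack of overlap adds no evidence. Without overlap in that comparison were 4.45% of all genes, and the share of all genes that meet the selection was not counted. The range of WT overlapped both. The log2FC was −0.27 for HET and 0.20 for KO against WT. The difference itself, KO against HET, was 0.47 on the log2 scale (unadjusted p = 0.020 and adjusted p = 1.00 in limma), so that it does not pass the adjustment. The gene was picked by these same values, which the unadjusted p does not take into account.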

How the results depend on the processing

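The count of genes and of members past the adjusted threshold was 0 in each comparison under every alternative, and the smallest adjusted p of a member was 0.974. Of 630 member log2FC values, 600 kept their direction and 30 reversed. Part of the 600 could not have reversed. Filters, variance priors, the replicate block and fits of 2 genotypes leave these log2FC values as they are. So does leaving out a library of the genotype that is not compared. Genes at an unadjusted p under 0.05 (main counts 158, 117 and 186 for HET against WT, KO against WT and KO against HET) numbered 365, 310 and 318 with the replicate block, which changed no call of a member, and, for KO against WT, 76 with a filter of 50, 176 without trend and 395 with array weights. Without HET and KO replicates 3 they numbered 271 for HET and 217 for KO against WT, and members 1 for HET against WT and 4 for KO against HET, where array weights gave 2. Leaving out single libraries gave 116 to 393, 70 to 289 and 141 to 298 genes (highest without HET replicate 2, WT replicate 3 and HET replicate 2), 0 to 1, 0 to 2 and 0 to 5 members (highest without HET replicate 3, KO replicate 1 and HET replicate 3), and 0 to 7, 5 to 10 and 8 to 10 members above 0. In HET against WT, log2FC reversed for *Arc* (−0.030 with array weights, −0.16 without replicates 3), *Nr4a1* (−0.0042 with quantile normalization, −0.041, −0.18), *Dusp1* (−0.016 without replicates 3), *Fosl2* (0.070), *Jund* (0.018, 0.092), *Nr4a3* (0.040) and *Shank3* (−0.024) in the same order of settings. In KO against WT it reversed for *Jund* (0.072, 0.12) and *Nr4a2* (−0.093, −0.039), and in KO against HET for *Jund* (0.0034 with quantile normalization, 0.054, 0.030). Leaving out single libraries, values that reversed ranged as follows in HET against WT. *Fos* ran from −0.42 to 0.12, *Egr1* from −0.42 to 0.051, *Egr2* from −0.41 to 0.17, *Egr4* from −0.24 to 0.027, *Arc* from −0.16 to 0.19, *Nr4a1* from −0.18 to 0.15, *Dusp1* from −0.016 to 0.31, *Fosl2* from −0.33 to 0.38, *Jun* from −0.092 to 0.15, *Jund* from −0.23 to 0.092, *Nr4a3* from −0.53 to 0.42 and *Shank3* from −0.075 to 0.20. In KO against WT, *Fosb* ran from −0.14 to 0.45, *Junb* from −0.20 to 0.23, *Egr1* from −0.16 to 0.14, *Egr2* from −0.021 to 0.37, *Npas4* from −0.26 to 0.37, *Jund* from −0.22 to 0.12, *Nr4a2* from −0.37 to 0.33, *Nr4a3* from −0.026 to 0.92 and *Atf3* from −0.0014 to 0.51. In KO against HET, *Junb* ran from −0.040 to 0.39, *Egr1* from −0.077 to 0.39, *Egr2* from −0.039 to 0.54, *Dusp1* from −0.0035 to 0.40 and *Jund* from −0.16 to 0.18. The median r was 0.79 and rho 0.71 without replicates 3. It was 0.44 for r without the 2 libraries farthest from the median of the first gene of each pair. Pairs past the adjusted threshold by rho numbered 3 with quantile normalization and 0 without replicates 3, and leaving out single libraries gave 2 to 14 pairs by r (2 without HET replicate 1 or KO replicate 2), 0 to 5 by rho and a median rho of 0.43 to 0.62. The cause of these shifts was not tested. Count tests were not run, since the values are not whole reads, and depth is unknown.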
